A study of Mus musculus with 4 samples.

Results

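The tumour suppressor p53 and 9 genes that it is known to activate directly were followed in mouse embryonic stem (ES) cells after knockdown of Atad2. The 10 genes are Trp53, which encodes p53, Cdkn1a, Mdm2, Ccng1, Trp53inp1, Sesn2, Bax, Zmat3, Phlda3 and Bbc3. They were chosen by name, as a list, and not by a threshold on a measured value. The choice was made with earlier results of these data known, so shares set beside those of all genes are descriptions and not tests. All 10 were present in the tables and all 10 passed the filter on low values, out of 21557 genes with a row and 10162 genes tested. Atad2 is a bromodomain AAA ATPase that binds acetylated chromatin, and the study asked what its loss does to the transcripts of ES cells.

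All cells were of the 46C mouse ES line carrying a TAP tag knocked in at Atad2, which was a selected clone, and they were grown on gelatin with LIF and serum. The 2 si-ctrl libraries came from cells given a scrambled siRNA and the 2 si-Atad2 libraries from cells given anti-Atad2 siRNA. The tag and the culture medium were shared by both groups. The labels number the libraries 1 and 2 in each group, while the study describes more than 1 active siRNA and a repeat run of every RNA. Which siRNA gave which library, and whether the numbers mark separate transfections, is not given in the sources used here. The spread between these libraries, on which the p-values rest, may thus be technical. Each gene has only 2 pairs, and the fit used (limma) draws its spread toward that of genes of like level. The SEs, intervals and p-values that limma gives for a gene therefore rest mostly on other genes. All 4 libraries were multiplexed in 1 lane and read as paired ends of 50 cycles. Levels are FPKM (fragments per kilobase, scaled by Cuffdiff), a unit that corrects for transcript length and library size, summed over a gene's transcripts. They can therefore be compared between genes within a library. The authors scaled each pair of libraries in a run of its own, so levels set across pairs rest on separate scalings, and the tables give no read counts.

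In an unstressed cell p53 is made and destroyed continuously, because the ubiquitin ligase Mdm2 marks it for the proteasome. Damage to DNA or other stress breaks that contact, p53 accumulates as a tetramer on its response elements, and transcription of its targets rises, Mdm2 among them, which closes a feedback loop. The protein is regulated mostly by its stability, so the Trp53 transcript is a poor guide to p53 activity, and its targets are the usual readout. Targets stop the cell cycle (Cdkn1a, Ccng1), restrain growth and oxidative damage (Sesn2, Trp53inp1) or lead to death (Bax, Bbc3). Mouse ES cells are known for abundant Trp53 transcript and for a short G1 phase, in which the p21 protein encoded by Cdkn1a is kept low.

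A p53 response element is a pair of decamers of 10 bases each. RefSeq promoter sequences of build GRCm38.p6, running from 250 bases before to 50 bases after each gene's start, were searched for the p53 consensus (the el-Deiry decamer, repeated with no spacer, on both strands). The table held 8 of the 10 genes, and Trp53inp1 and Zmat3 were not in it. Where a gene had several starts, the closest match over all its windows was kept, also for the background genes. Genes with more starts were thus searched over more sequence. No gene of the 8 had a match without mismatches, and 3 of 27025 genes in the table had one (0.0111%). With up to 3 mismatches of 20, a setting chosen after seeing the data, 5 of the 8 genes had a match, against 7.2% of all genes. The closest match of each of the 5 is shown because p53 is known to act through elements of this kind. Capitals mark the 4 central bases of each decamer.
Cdkn1a: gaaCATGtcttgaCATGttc
Ccng1: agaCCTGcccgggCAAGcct
Bax: agcATATcccaggCAAGctt
Bbc3: ctgCAAGccccgaCTTGtcc
Trp53: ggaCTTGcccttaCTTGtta
The matches of Cdkn1a and Ccng1 had 1 mismatch each, a closeness reached by 0.107% of all genes. The Cdkn1a match lies at chr17:29090928-29090947 on the plus strand and its first base is at -51 from the RefSeq start of that window. Cdkn1a had 2 starts in the table and Bbc3 had 3, so their positions refer to the start whose window held the match. The Ccng1 match lies at chr11:40755462-40755481 on the minus strand, at -195. The other 3 had 3 mismatches each. They lie at chr7:45467090-45467109 on the minus strand for Bax, at -211, at chr7:16309486-16309505 on the plus strand for Bbc3, at -97, and at chr11:69580284-69580303 on the plus strand for Trp53, at -75. The closest stretches in the windows of Mdm2, Sesn2 and Phlda3 had 5 mismatches. A match is a description of letters in this window and not a bound site, and response elements farther upstream or in introns lie outside it.

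The targeted gene itself was read first. Atad2 (chr15:58094044-58135082, minus strand, in GENCODE on GRCm38 as for all genes here) was at 34.1 and 36.0 FPKM in si-ctrl 1 and 2 and at 10.1 and 13.0 FPKM in si-Atad2 1 and 2, so that 29.6% and 36.2% of the si-ctrl level remained. Its log2 ratio was -1.53 (SE 0.077, adjusted p = 8.87e-06 by limma). All 8 ES cell markers read, such as Pou5f1 and Nanog, lay between 49.1 and 807 FPKM in every library, and their summed level was 2330 in both si-ctrl libraries and 2240 and 2210 FPKM in si-Atad2 1 and 2. Single markers moved more than the sum. Nanog was at 338 and 332 FPKM in si-ctrl and 253 and 313 in si-Atad2 (log2 ratio -0.25, adjusted p = 0.116 by limma). Pou5f1 was at 807 and 778 FPKM in si-ctrl and 739 and 701 in si-Atad2. Sox2 and Tdgf1 had ratios above 0, at 0.043 and 0.088, and no ES cell marker was called. Of 6 fibroblast markers, which would show feeder cells, 4 stayed under 1 FPKM in every library, Lum was listed at 0 and the sum was 7.18 to 8.50 FPKM. Thy1, at 5.56 to 6.75 FPKM, made up most of that sum, and Col1a1 was at 1.16 to 1.46 FPKM. Summed levels were 5.60 to 6.27 FPKM for 5 primitive endoderm markers, 2.70 to 3.19 for 5 trophoblast markers and 2.57 to 3.30 for the 3 of 5 neural markers that had a row named for them. In bulk RNA, fewer cells of a type and less RNA per cell cannot be told apart.

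In cells given si-ctrl, the 10 genes had mean levels from 18.7 to 213 FPKM and all were well expressed, between the 68.7th and the 98.7th percentile of the genes tested. Bax, which permeabilises the outer mitochondrial membrane, was the highest at 218 and 207 FPKM. Trp53 followed at 174 and 176 FPKM and Ccng1, which encodes cyclin G1, at 159 and 170 FPKM. A gap separated these from Trp53inp1 at 69.2 and 73.4, Mdm2 at 66.5 and 66.6 and Sesn2 at 51.9 and 50.2 FPKM. Cdkn1a at 40.6 and 37.6, Phlda3 at 38.5 and 33.9 and Zmat3 at 32.0 and 31.8 FPKM lay close together. Bbc3, the BH3-only death activator also called PUMA, was the lowest at 19.6 and 17.8 FPKM. Of the 9 neighbouring pairs in this order, Cdkn1a and Phlda3 were the pair whose si-ctrl libraries overlapped. The other neighbours did not overlap, which with 2 libraries each is a description and not a test.

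**Figure D1:**
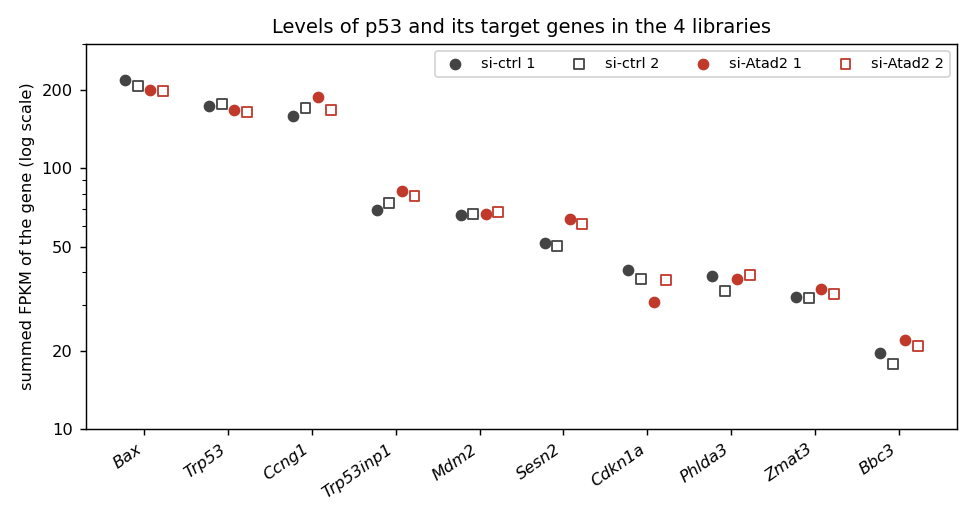
FPKM of Trp53 and the 9 target genes in each of the 4 libraries, on a log axis, ordered by the si-ctrl mean. Filled circles are replicate 1 and open squares replicate 2, in 1 colour per group. Bax, Trp53 and Ccng1 lie above the other 7 genes in every library, si-Atad2 1 is the low point of Cdkn1a, and the si-Atad2 points of Sesn2 stand clear above its si-ctrl points.

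Most of the genes were read through 1 transcript. For Sesn2 the transcript of 2655 bases carried 98.0% to 98.3% of the gene's FPKM, for Cdkn1a that of 1910 bases carried 95.9% to 97.3%, for Mdm2 that of 3027 bases 86.2% to 89.8% and for Zmat3 that of 7782 bases 90.2% to 92.0%. Ccng1, Phlda3 and Bbc3 had 1 transcript each in the tables. Trp53 was divided between a pair of transcripts of 1772 bases (51.8% to 54.7%) and 1868 bases (41.9% to 45.1%), and its other 3 transcripts stayed under 3 FPKM. Trp53inp1 was divided between transcripts of 5392 bases (53.9% to 58.9%) and 5430 bases (36.7% to 40.5%), and Bax between those of 869 bases (62.8% to 64.5%) and 1216 bases (35.5% to 37.2%). No gene exchanged its leading transcript after the knockdown. Transcripts of a gene share reads, so no test was made on single ones.

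**Figure D2:**
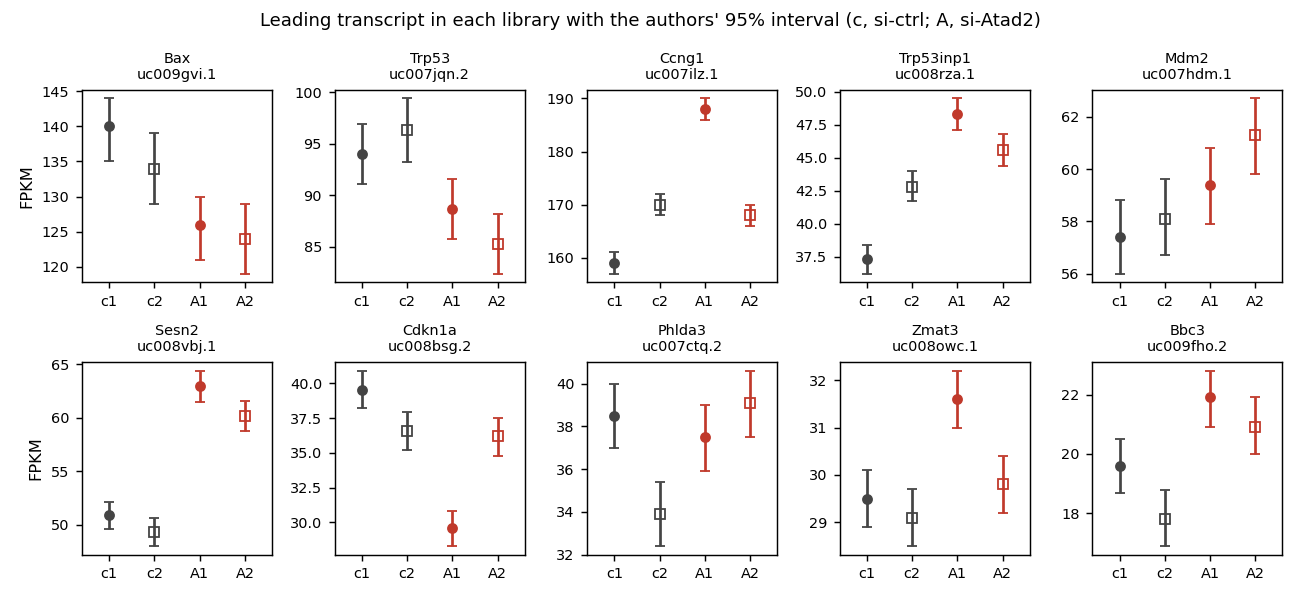
FPKM of the leading transcript of each gene in the 4 libraries, with the authors' 95% confidence interval as bars, 1 panel per gene. The vertical axes do not start at 0. The intervals of a pair lie apart in the same direction in both pairs for Trp53inp1, Sesn2 and Bbc3.

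The question of the comparison is whether the genes differed between si-Atad2 and si-ctrl. Because of the separate scaling, log2((si-Atad2 + 1)/(si-ctrl + 1)) was taken within pair 1 and within pair 2 and tested with limma across all genes. Sesn2 rose by 23.5% in pair 1 and 22.0% in pair 2 and was the single gene of the 10 past the threshold, an adjusted p of 0.05. No gene of the 10 was called lower and 9 were not called. Among all genes tested 2.05% were called, 1.61% higher and 0.433% lower, so 1 of 10 is a count too small to set the list apart from that background. Unadjusted p was under 0.05 for 4 of the 10 (Sesn2, Bbc3, Trp53inp1 and Cdkn1a), against 16.2% of all genes. The median log2 ratio was 0.079 over the 10 genes and -0.007 over all genes, and it was 0.060 against 0.002 in pair 1 and 0.042 against -0.015 in pair 2. Both si-Atad2 libraries lay above both si-ctrl libraries for 5 of the 10 (22.6% of all genes) and below them for 3 (26.7%), and the groups overlapped for Ccng1 and Phlda3. Groups that did not overlap were thus seen for 8 of the 10, against 49.2% of all genes. Because earlier results of these data were known when the list was chosen, such contrasts do not show an excess. The spread across all genes gives a scale, since the interquartile range of the log2 difference was 0.21 in pair 1, 0.15 in pair 2, 0.12 within the si-ctrl group and 0.16 within the si-Atad2 group.

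**Figure D3:**
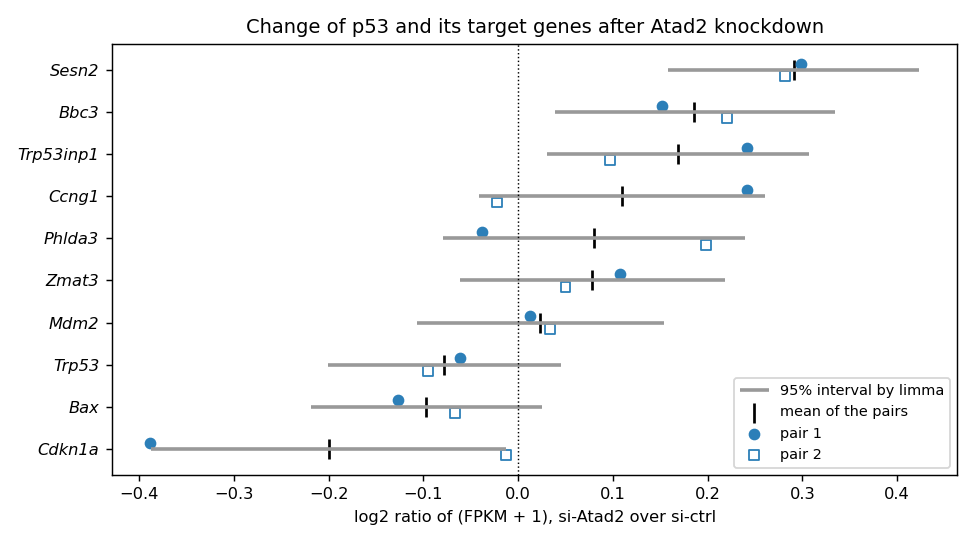
Log2 ratio of si-Atad2 over si-ctrl for each gene in pair 1 and pair 2, with the mean and its 95% confidence interval by limma. Sesn2, the called gene, has nearly equal ratios in both pairs, at 0.30 and 0.28, while those of Cdkn1a, Ccng1 and Phlda3 lie far apart.

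Among the genes that restrain growth and oxidative stress, Sesn2 (ENSMUSG00000028893, chr4:132492032-132510501, minus strand) encodes sestrin 2, a leucine sensor that restrains mTORC1 and is induced by p53 and by the amino acid stress factor Atf4. It was at 51.9 and 50.2 FPKM in si-ctrl 1 and 2 and at 64.1 and 61.2 FPKM in si-Atad2 1 and 2. The groups did not overlap, and the ratios of the pairs were nearly equal, at 0.30 and 0.28. The mean log2 ratio was 0.29 (SE 0.060, 95% interval 0.16 to 0.42, adjusted p = 0.0347 by limma). By comparison the si-ctrl libraries differed from each other by -0.048 and the si-Atad2 libraries by -0.065 on the log2 scale. The leading transcript stood at 50.9 FPKM (authors' interval 49.6 to 52.1) in si-ctrl 1 against 63.0 (61.5 to 64.4) in si-Atad2 1, and at 49.3 (48.0 to 50.6) in si-ctrl 2 against 60.2 (58.8 to 61.6) in si-Atad2 2, so the intervals were apart in both pairs. Its log2 ratio lay between 0.27 and 0.33 in the settings that gave a value, and the call held in 7 of 11, the reported one included. The adjusted p by limma was 0.0551 when the trend with GC content was removed from each pair, 0.0924 without the trend on level in eBayes, 0.205 with transcripts of all lengths and 0.503 with no filter on low values. A noncoding gene, Gm12981, overlaps Sesn2 on the same strand, and how reads of the overlap were divided was not tested.

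Trp53inp1 (chr4:11156431-11174379, plus strand) encodes a stress protein that joins p53 in nuclear bodies and takes part in autophagy. It was at 69.2 and 73.4 FPKM in si-ctrl and at 82.0 and 78.6 FPKM in si-Atad2. Both knockdown libraries were above both controls, by 18.5% in pair 1 and 7.1% in pair 2. The log2 ratio of 0.17 (SE 0.062, 95% interval 0.031 to 0.31) was not called (adjusted p = 0.208 by limma). Most of the difference in pair 1 lay in the transcript of 5392 bases, at 37.3 FPKM in si-ctrl 1 and 48.3 in si-Atad2 1, while that of 5430 bases stood at 28.0 and 30.1 FPKM. Zmat3 (chr3:32334792-32366014, minus strand), an RNA-binding zinc finger protein, was at 32.0 and 31.8 FPKM in si-ctrl and 34.6 and 33.0 FPKM in si-Atad2. Again the si-Atad2 libraries were the higher ones, yet the log2 ratio was 0.078 with a 95% interval from -0.061 to 0.22 (adjusted p = 0.587 by limma).

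Of the genes that act in the arrest of the cell cycle, Cdkn1a (ENSMUSG00000023067, chr17:29090976-29100727, plus strand), the gene of the cyclin-dependent kinase inhibitor p21, is the target most often read for p53 activity. It was at 40.6 and 37.6 FPKM in si-ctrl 1 and 2 and at 30.8 and 37.3 FPKM in si-Atad2 1 and 2. The low library was si-Atad2 1, and the other 3 lay within 37.3 to 40.6 FPKM. The change was -24.1% in pair 1 and -0.9% in pair 2, that is a log2 ratio of -0.39 against -0.013. The mean of -0.20 (SE 0.085, 95% interval -0.39 to -0.013) was not called (adjusted p = 0.274 by limma), and the 2 si-Atad2 libraries differed from each other by 0.27, more than the mean ratio. That SE and interval rest mostly on the spread of other genes and understate how far the pairs of Cdkn1a lie apart. Leaving out pair 1 leaves -0.013 and leaving out pair 2 leaves -0.39, in each case a single ratio with no test. The leading transcript was at 39.5 FPKM (38.2 to 40.9) in si-ctrl 1 against 29.6 (28.3 to 30.8) in si-Atad2 1, and at 36.6 (35.2 to 37.9) in si-ctrl 2 against 36.2 (34.8 to 37.5) in si-Atad2 2. A gene model of unknown coding potential, AC167363.2, overlaps Cdkn1a on the opposite strand, and use of the strand in the counting is not stated.

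Ccng1 (chr11:40748552-40755311, minus strand), whose protein recruits the phosphatase PP2A to Mdm2, showed the reverse arrangement. It was at 159 and 170 FPKM in si-ctrl and at 188 and 168 FPKM in si-Atad2. The single high library was si-Atad2 1, and the groups overlapped. Its ratio was 0.24 in pair 1 and -0.022 in pair 2 (mean 0.11, SE 0.068, adjusted p = 0.472 by limma). Cdkn1a and Ccng1 stood on opposite sides of 0 in pair 1, and at -0.013 and -0.022 in pair 2. Their transcripts also differ in base composition, with 54.4% G and C in Cdkn1a and 40.8% in Ccng1. Members richer in G and C than Cdkn1a had pair 1 ratios on both sides of 0. These were 0.30 for Sesn2 (58.7%), 0.15 for Bbc3 (65.2%), -0.13 for Bax (63.5%) and -0.038 for Phlda3 (62.6%). Across all tested genes the pair 1 ratio had a Spearman correlation of -0.28 with GC content and the pair 2 ratio one of 0.085, while the difference of si-ctrl 2 from si-ctrl 1 had the largest in size of these, -0.54, over genes that share these libraries. With the trend removed, the mean ratio was -0.18 for Cdkn1a and 0.085 for Ccng1, neither called. Whether base composition bears on the ratios of these genes was not tested.

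Trp53 itself (ENSMUSG00000059552, chr11:69580359-69591873, plus strand) was at 174 and 176 FPKM in si-ctrl and at 167 and 165 FPKM in si-Atad2. The si-Atad2 libraries were the lower ones, by 4.2% and 6.4%. The log2 ratio of -0.078 (SE 0.056, 95% interval -0.20 to 0.045, adjusted p = 0.531 by limma) was not called. Mdm2 (ENSMUSG00000020184, chr10:117688875-117710758, minus strand), the ligase that degrades p53 and also one of its targets, was the gene of the 10 with the ratio nearest to 0. It was at 66.5 and 66.6 FPKM in si-ctrl and at 67.1 and 68.2 FPKM in si-Atad2. The log2 ratio was 0.023 (SE 0.059, adjusted p = 0.887 by limma), and its 95% interval from -0.11 to 0.15 holds 0. The intervals of both genes rest on the spread between these libraries, mostly that of other genes, which may be technical. They set no upper limit on the effect of the knockdown.

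The genes of cell death did not share a direction. Bax (chr7:45461697-45466898, minus strand) was at 218 and 207 FPKM in si-ctrl and at 200 and 198 FPKM in si-Atad2. In si-Atad2 it was lower in both pairs, by 8.5% and 4.6%, and the log2 ratio of -0.097 (SE 0.055, 95% interval -0.22 to 0.025) was not called (adjusted p = 0.43 by limma). A second coding gene model, Gm45808, overlaps Bax on the same strand, and its share of the reads was not tested. Bbc3 (chr7:16308393-16318205, plus strand) was at 19.6 and 17.8 FPKM in si-ctrl and at 21.9 and 20.9 FPKM in si-Atad2. In si-Atad2 it was higher in both pairs, by 11.7% and 17.4%. Its log2 ratio of 0.19 (SE 0.067, 95% interval 0.039 to 0.33) had an adjusted p of 0.193 by limma. Phlda3 (chr1:135766119-135769136, plus strand), which keeps the survival kinase Akt from the membrane, was at 38.5 and 33.9 FPKM in si-ctrl and 37.5 and 39.1 FPKM in si-Atad2. The groups overlapped, with the low library being si-ctrl 2, and the pairs went opposite ways, at -0.038 and 0.20 (mean 0.080, adjusted p = 0.63 by limma).

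The pairs pointed the same way for 8 of the 10 genes, against 62.7% of all genes. The authors' intervals of the leading transcript were apart for 7 genes in pair 1 (34.1% of all genes) and for 6 in pair 2 (23.0%), and apart in the same direction in both pairs for 3, Trp53inp1, Sesn2 and Bbc3 (10.5% of all genes). Those intervals narrow with the level, and the 10 genes are more highly expressed than most. For 4 genes, Trp53, Trp53inp1, Sesn2 and Bbc3, both ratios had the same direction and were larger in size than both differences between libraries of the same group, as they were for 21.9% of all genes. Of the 9 genes not called, the 95% intervals of 6 held 0, and over all 9 the bounds ran from -0.39 for Cdkn1a to 0.33 for Bbc3 on the log2 scale. A missed threshold does not show that these genes were equal in both groups, and the intervals describe only the spread between these libraries, pooled over genes.

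**Figure D4:**
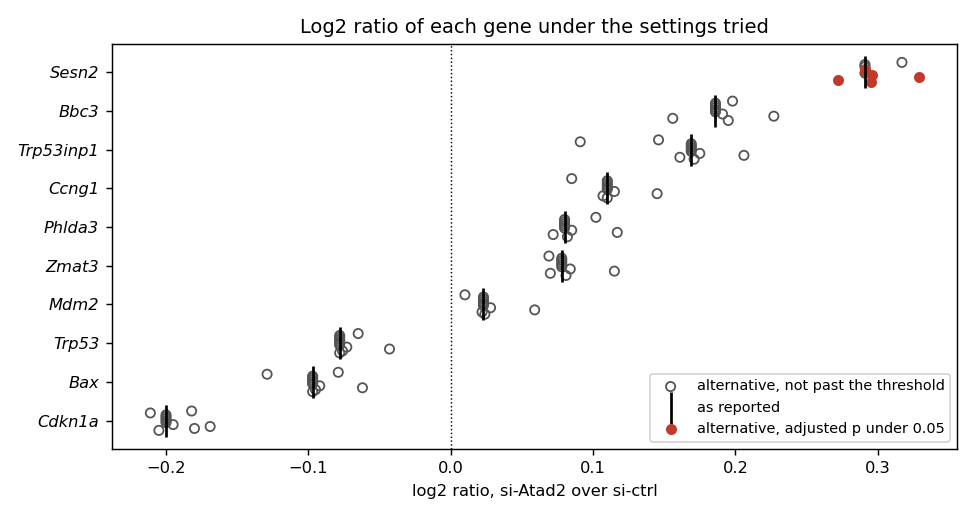
Mean log2 ratio over both pairs of each of the 10 genes under each alternative setting that keeps both pairs (leaving out a replicate is not drawn), with the value as reported as a vertical bar and settings with an adjusted p under 0.05 filled. Every gene keeps its side of 0 in these settings, and Sesn2 alone has settings past the threshold.

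A further 111 genes of the p53 pathway, in 5 lists, were read from the same fit, of which 95 had a row named for them and 91 were tested. A gene without a named row may still be among the 12588 rows that got no gene. Of these, 1 was called lower and none was called higher by limma, against 2.05% of all genes called and 0.433% called lower. The limma p before adjustment was under 0.05 for 18 of the 91, near the background of 16.2%. The 21 regulators tested, which include the kinases Atm and Chek2, the second inhibitor Mdm4 and the p53 relative Trp73, had a median log2 ratio of -0.014 with none called. The 17 targets in arrest and repair had a median of -0.006, the 18 in death -0.035 and the 20 in metabolism and other roles -0.009, with none called in any of these lists. Over the 55 tested genes of these 3 target lists the median was -0.012, with 23 above and 32 below 0, close to the -0.007 of all genes. Of the 55, 13 had an unadjusted p under 0.05 by limma, against 16.2% of all genes, a description and not a test. With the libraries rescaled to TPM the median of all genes was 0.025 and that of the 55 targets 0.023, so the sign of these small medians follows the scaling.

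The called gene was Prc1, the microtubule bundler of the central spindle, in the list of 15 tested cell cycle genes that p21 represses through the DREAM complex. It was at 23.4 and 24.2 FPKM in si-ctrl and at 17.2 and 19.3 FPKM in si-Atad2. The groups did not overlap, and its log2 ratio was -0.37 (SE 0.068, adjusted p = 0.0213 by limma). Of the 15 genes 12 had a ratio below 0, as had 52.7% of all genes, and the median of the 15 was -0.084, against -0.007 for all genes. The other 3 lay above 0, the highest at 0.27 (adjusted p = 0.0622 by limma). With a pseudocount of 5 FPKM and in TPM, 2 genes of the list were called. The median of the list was -0.13 in pair 1 and -0.022 in pair 2. Their names belong to mitosis and replication as much as to p53, and 14 of 15 were not called. The call of Prc1 was lost in 5 of 12 settings, with adjusted p up to 0.518 by limma.

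By the rule for named genes, the 3 highest and 3 lowest ratios of the further lists were also read. Cd80, a costimulatory surface protein, was at 2.99 and 2.96 FPKM in si-ctrl and 4.37 and 3.70 FPKM in si-Atad2 (log2 ratio 0.34, adjusted p = 0.0737 by limma). Tnfaip8 was at 2.13 and 1.86 FPKM in si-ctrl and 2.84 and 2.49 FPKM in si-Atad2 (0.29, adjusted p = 0.113 by limma). Ppm1d, the phosphatase Wip1 that switches off p53 and its kinases, was at 15.8 and 15.4 FPKM in si-ctrl and 20.1 and 18.6 FPKM in si-Atad2. All of these had both knockdown libraries above both controls and none was called. For Ppm1d the log2 ratio was 0.29 (adjusted p = 0.0585 by limma), and it was called with a pseudocount of 5 FPKM (0.044), in TPM (0.0365) and with median of ratios (0.0461). On the low side, besides Prc1, Trp73, the p53 relative, was at 6.18 and 5.67 FPKM in si-ctrl and 4.47 and 4.88 FPKM in si-Atad2 (-0.29, adjusted p = 0.115 by limma). Steap3, a metalloreductase, was at 11.5 and 10.8 FPKM in si-ctrl and 8.27 and 10.4 FPKM in si-Atad2 (-0.24, adjusted p = 0.223 by limma), low in si-Atad2 1 as Cdkn1a was.

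**Figure D5:**
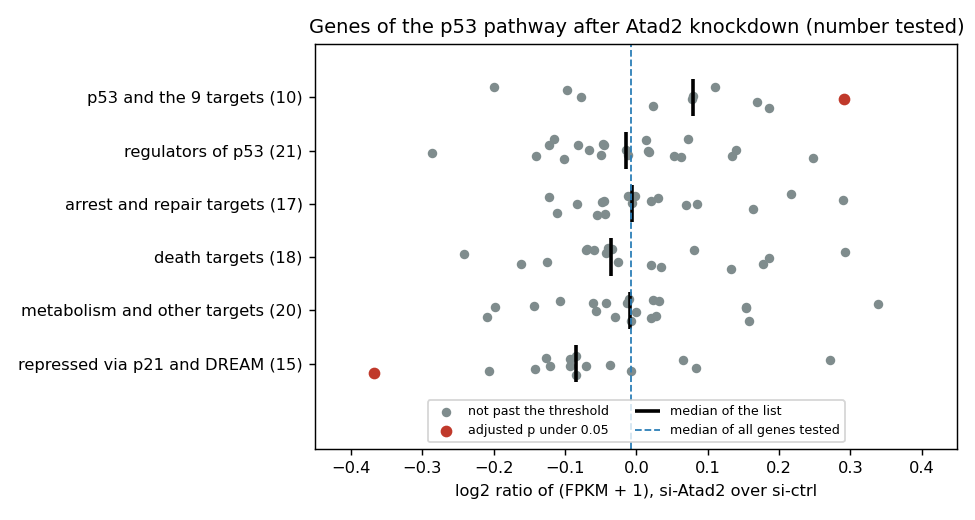
Log2 ratio of si-Atad2 over si-ctrl for each tested gene of the 10 p53 genes and the 5 further lists, 1 point per gene, with the median of each list and that of all genes tested. Called genes, Sesn2 and Prc1, are marked, and the list medians lie between -0.084 and 0.079.

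The genes whose pattern was nearest to that of Cdkn1a were sought among 2573 genes of like level, by Euclidean distance in the pair of log2 ratios. The nearest was Ccnb2, cyclin B2, at a distance of 0.0111, with 72.1 and 71.8 FPKM in si-ctrl and 54.8 and 70.6 FPKM in si-Atad2. It was followed by Acaa2, a mitochondrial thiolase (0.0276), with log2 ratios of -0.42 in pair 1 and -0.016 in pair 2, and by Sdf2 (0.0396), with -0.38 and -0.052. All of these were low in si-Atad2 1 alone, which is what the measure selects over the 4 libraries.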

How the data were processed

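RNA-seq of 46C ES cells carrying the Atad2 tag was analysed in 4 libraries, grouped by the labels into si-ctrl and si-Atad2. The authors ran Cuffdiff separately on each numbered pair and deposited FPKM per transcript with a 95% interval. The labels name TopHat, Cuffdiff and mm9 without versions and the study names Bowtie, whereas the deposited loci match GRCm38. Tables of the authors' own comparisons (fold changes, p-values) were not used. As the values are not read counts, count models were not applied, and the depth is unknown.

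Of 59120 rows, 46532 were named from GENCODE vM21, 14986 by a length within 3 bases of an annotated transcript and the rest as the locus's only coding gene or only gene. FPKM of rows of at least 200 bases were summed per gene. The test covered genes averaging 1 FPKM or more whose rows were all marked OK (limma's lmFit on the 2 within-pair log2 ratios, pseudocount 1, eBayes with trend, Benjamini-Hochberg). The pairs come from the separate runs. Libraries sharing a number deviated from their groups with a correlation of -0.016. Listed genes in loci of several genes can be named in part only. Genes named were the 10 genes, Atad2, cell type markers, called genes and the 3 highest and 3 lowest ratios of the further lists, and the 3 genes nearest Cdkn1a. The genes and lists were chosen with earlier results of these data known. The alternatives were other pseudocounts, scalings, filters, naming, length minimum and eBayes trend, GC correction, no block and leaving out each replicate. With 2 libraries a group, an exact permutation test of 1 gene that ignores the pairs cannot go below p = 0.333. Keeping the pairs, as the fit does, leaves fewer arrangements and a higher limit. Tables were built with Python 3.11.15 (pandas 2.3.3, numpy 2.4.6), the fit was run with limma 3.58.1 in R 4.3.3, and plots were drawn with matplotlib 3.10.9.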

Additional observations from a re-analysis of the deposited data

How the results depend on the processing

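The mean log2 ratios of the 10 genes kept their sign in the 11 or 12 settings that keep both pairs, and apart from Sesn2 none was called in any. With a replicate left out, 8 of the 10 kept it, while Ccng1 was at -0.022 without replicate 1 and Phlda3 at -0.038 without replicate 2. Genes called numbered 208, and 140 to 279 under other pseudocounts, scalings, a minimum of 5 FPKM, no trend or no replicate block. They numbered 99 (85 higher, 14 lower) with the GC trend removed with the replicate block, 32 among 3679 genes with rows named by length alone, 9 (1264 at an unadjusted p under 0.05 by limma) with transcripts of all lengths and 0 with no filter (1959 at an unadjusted p under 0.05 by limma). Of the 10 genes, 1 was called, and 0 with no filter (2 at an unadjusted p under 0.05 by limma), without the trend (3), with all lengths (3), with the GC trend removed (3), and by length alone (0), where 4 of the 10 were tested and Sesn2 was not among them. Of the further lists 1 gene was called, 3 with a pseudocount of 5 FPKM, 3 in TPM, 2 with median of ratios, and 0 with no filter (11 at an unadjusted p under 0.05 by limma), without the trend (13), with all lengths (14) and with the GC trend removed (19). By length alone 1 of 30 tested was called, but it was higher and in the arrest and repair list. Prc1 was not called there (adjusted p = 0.0729 by limma). The cause of these differences between settings was not tested. Atad2 was at -1.53 with adjusted p = 0.503 by limma with no filter, and at -1.66 to -1.40 when a replicate was left out, which leaves 1 ratio with no test. Without the replicate block, 164 genes were called (135 higher, 29 lower), Sesn2 kept its call (adjusted p = 0.0429 by limma), and no other call on the 10 genes changed. The wider promoter windows planned were not run, since the sequence read here ends 250 bases before the start. Without counts, the depth behind each value is unknown, and 2 libraries a group limit the precision.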
